A study of Mus musculus with 32 samples.

Results

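S100a9, Ngp and Lyz2 are 3 genes of neutrophils and other myeloid cells, read here by 5 probes out of the 20794 probes on the arrays, which made 17060 features, 9026 of them named genes. They were picked from these same data, S100a9 and Ngp for low values in the spleen of cloned Dll1 mice and Lyz2 for high values in the spleen of cloned wildtype mice. Those group values, and every spleen difference between the genotypes, are therefore descriptions without a test. All 3 genes had values on all 32 arrays and passed the filter for low numbers of values in all 4 groups. There were 4 groups of 4 cloned mice: Dll1 clones, in liver and in spleen, and wt (wildtype) clones, in liver and in spleen. All were males of strain 129/SvJ aged 18 to 19 weeks, produced by nuclear transfer, and the labels say Dll1 cloned without giving the allele. The second channel of each array held the same organ's RNA from a pool of conventionally bred males of the same strain and age. For the Dll1 clones the pool came from Dll1 heterozygotes, and for the wt clones from wildtype mice. Clone and pool thus carry the same genotype name, and a ratio shows clone against pool, not mutant against wildtype. A mouse had 2 arrays per organ, the second with Cy3 and Cy5 exchanged, and the same animals gave both organs. The labelling protocol speaks of a pool of 6 animals, while the labels list 4 mouse identifiers per pool.

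Neutrophils mature in the bone marrow and, in mice, also in the red pulp of the spleen, and fill their granules in waves as they mature. S100a9 forms with S100a8 the calcium-binding dimer calprotectin, the most abundant cytosolic protein of mature neutrophils. Ngp encodes neutrophilic granule protein, a cathelicidin-like protein of secondary granules. Lyz2 encodes lysozyme M, which cuts bacterial cell walls and is made by neutrophils, monocytes and macrophages, so that it marks a wider set of cells than S100a9 and Ngp. Dll1, after which the mutant mice are named, is a Notch ligand that guides marginal zone B cells in the spleen.

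Every value below is a log2 ratio, likely of clone over pool as the titles order them, averaged over the dye-swapped arrays of a mouse. A value below 0 means less signal in the clone. The gene names rest on reading each row's name 11 rows earlier, and they are provisional: of 14 ways of scoring the agreement between probes that share a name, this shift came out highest among the shifts scored in 6, and another shift scored higher in 8. With all probes and all 16 mouse values the mean correlation of such probes was 0.0260 at this shift and 0.0200 at the next best. On the 8 spleen mouse values alone the shift ranked 21 of 601 by pair and 17 of 601 by gene. One of the 6 scorings that put it highest compared only 2 shifts, with 2 pairs of probes at this shift. With the names as given, S100a9 and Ngp would lie at -0.13 and -0.04 in Dll1 clone spleen, and Lyz2 at 0.47 in wt clone spleen. Array medians lay between -0.067 and 0.079, and 74 to 2966 values were missing per array. Ratios carry no level of a gene, so the organs were not checked against their markers. In bulk tissue fewer cells of a type and less RNA per cell cannot be told apart.

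The promoters are printed so that the genes can be set side by side in sequence. They are the 250 bases before the annotated start in RefSeq on GRCm38.p6, read on the strand of the gene. S100a9 (gene at chr3:90692630-90695721) lies on the minus strand, with its promoter at chr3:90695722-90695971. Ngp (gene at chr9:110419808-110423012) lies on the plus strand, with its promoter at chr9:110419558-110419807. Lyz2 (gene at chr10:117277541-117282272) lies on the minus strand, with its promoter at chr10:117282273-117282522. Capitals mark matches on either strand to the letters TTNNGNAA, a form of the motif of the C/EBP factors, which direct granulocyte maturation.
S100a9: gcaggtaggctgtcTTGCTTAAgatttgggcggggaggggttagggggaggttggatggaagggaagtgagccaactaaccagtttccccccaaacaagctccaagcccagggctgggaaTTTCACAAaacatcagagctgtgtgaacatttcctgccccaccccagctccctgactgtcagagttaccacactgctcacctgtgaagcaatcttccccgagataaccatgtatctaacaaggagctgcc
Ngp: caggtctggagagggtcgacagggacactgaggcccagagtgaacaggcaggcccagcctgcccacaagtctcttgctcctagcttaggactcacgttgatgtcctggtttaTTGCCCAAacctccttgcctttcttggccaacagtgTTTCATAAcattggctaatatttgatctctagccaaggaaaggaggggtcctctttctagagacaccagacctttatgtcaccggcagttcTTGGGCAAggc
Lyz2: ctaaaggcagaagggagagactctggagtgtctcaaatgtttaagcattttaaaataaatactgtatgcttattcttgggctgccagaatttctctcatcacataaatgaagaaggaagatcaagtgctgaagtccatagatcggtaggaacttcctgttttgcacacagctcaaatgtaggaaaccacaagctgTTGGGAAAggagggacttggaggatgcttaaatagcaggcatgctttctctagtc
The letters matched at 2 places in S100a9, 236 and 130 bases before the start, at 3 places in Ngp, 138, 102 and 11 bases before it, and at 1 place in Lyz2, 55 bases before it. Of 32544 mouse promoters of the same length, 36.8% held a match, so a match is common. The PU.1 core GAGGAA, searched on both strands, matched none of the 3 windows and 23.4% of all promoters. Lyz2 has a neighbouring copy, Lyz1, and the first 50 transcribed bases of both were identical at 49, so that signal of a Lyz2 probe may include Lyz1.

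In the spleen of Dll1 clones, S100a9 lay at -0.58, -0.98, -1.05 and -0.67 in mice 1 to 4. In the spleen of wt clones it lay at -0.02, 0.09, 0.19 and -0.52. All 4 Dll1 clones lay below their pool and below all 4 wt clones, but the gap was narrow, with the highest Dll1 clone at -0.58 and the lowest wt clone at -0.52. The group means were -0.82 ± 0.23 in Dll1 clones and -0.06 ± 0.32 in wt clones (SD, n = 4 mice each), a difference of -0.76. In the fit of that difference 0% of features passed and 4.6% fell under 0.05 without adjustment, and the member values are not read against it. For comparison, 7.27% of features had all 4 Dll1 spleens below 0, and 1.69% had all Dll1 spleens below all wt spleens. In wt clone spleen, which did not choose the gene, the mean did not pass by limma (SE 0.15, 95% interval -0.41 to 0.29, adjusted p = 0.9999), in a comparison where 0% of features passed and 3.42% fell under 0.05 without adjustment. Without wt mouse 4 that mean was 0.09.

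The gene mean of S100a9 joins 2 probes that did not agree. The probe at row 4889 lay at -1.61, -1.76, -1.92 and 0.09 in the 4 Dll1 clone spleens, and at 0.21, -0.04, -0.08 and -0.80 in the wt clone spleens. Dll1 mice 1 to 3 were thus far below every wt mouse, while Dll1 mouse 4 was near 0. The probe at row 18858 lay at 0.45, -0.21, -0.18 and -1.44 in the same Dll1 clones, so that mouse 4 was its only low mouse. The narrow spread of the gene mean in Dll1 clones therefore comes from averaging probes that were low in different mice. Group means for row 4889 were -1.30 ± 0.94 in Dll1 clones and -0.18 ± 0.43 in wt clones, and for row 18858 they were -0.35 ± 0.79 in Dll1 clones and 0.05 ± 0.36 in wt clones (SD, n = 4 mice each). Over the 8 spleens the probes correlated at r = -0.24, a description.

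In the Dll1 clone spleens row 4889 averaged -1.27 with the clone in Cy5 and -1.32 with the clone in Cy3. Over the 16 mouse values its dye orientations correlated at 0.927, and those of row 18858 at 0.195. The values that chose S100a9 are among the 16, so these correlations are descriptions.

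S100a8, the partner of S100a9 in calprotectin, followed row 4889. It lay at -0.96, -1.26, -0.94 and 0.20 in the Dll1 clone spleens, and at -0.10, -0.47, 0.04 and -0.49 in the wt clone spleens. Mouse 4 was again the Dll1 clone near 0. Over the 8 spleens S100a8 correlated with row 4889 at r = 0.915 and with row 18858 at r = -0.37, values that describe mice sharing arrays and depth. S100a8 averaged -0.74 ± 0.65 in Dll1 clones and -0.26 ± 0.26 in wt clones (SD, n = 4 mice each). Its size depended on the dye, at -1.15 in Cy5 and -0.33 in Cy3 in Dll1 clones, and at -0.61 in Cy5 and 0.09 in Cy3 in wt clones.

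**Figure D1:**
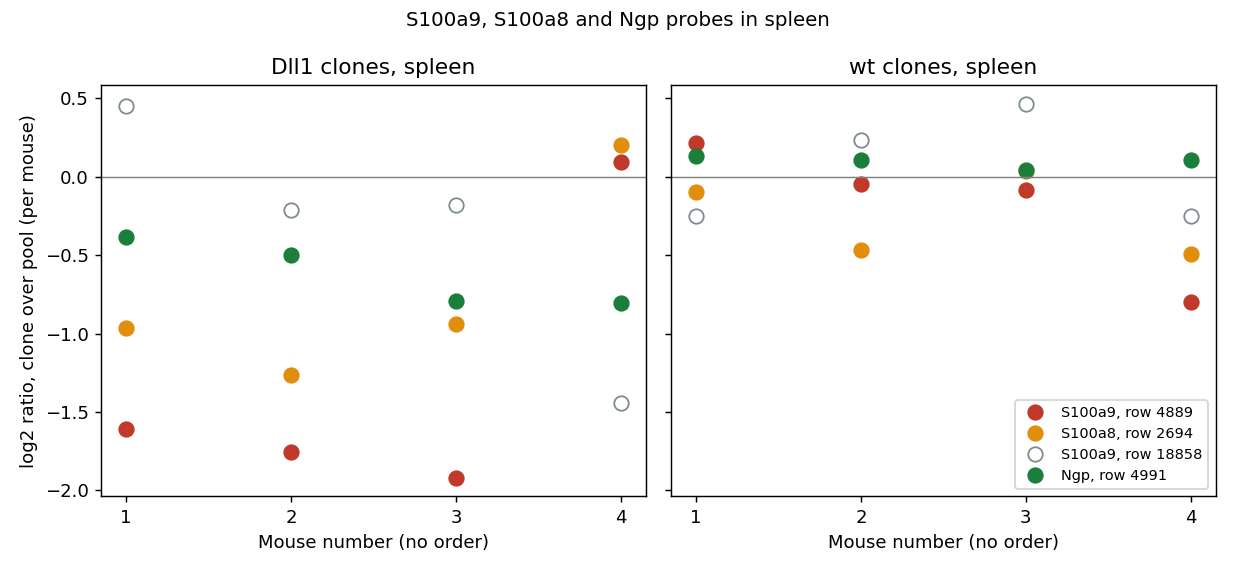
Log2 ratio per mouse (vertical axis) of the S100a9, S100a8 and Ngp probes in spleen, for Dll1 clones on the left and wt clones on the right, with the mouse number on the horizontal axis. In Dll1 mice 1 to 3 row 4889 lies between -1.92 and -1.61 and S100a8 between -1.26 and -0.94, both are above 0 in mouse 4, and the open symbols of row 18858 reach -1.44 in mouse 4.

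One array of Dll1 mouse 4 stood apart in spleen. With the clone in Cy5 it had 2966 missing values, the most among the spleen arrays, where the other spleen arrays of Dll1 clones, the Cy3 array of this mouse included, had 390 to 1712. Row 4889 read 0.32 on this Cy5 array and -0.14 on the Cy3 array of the mouse, which had 996 missing values. Leaving the mouse out was added after its values were seen. The means in Dll1 clone spleen were then -1.76 ± 0.15 for row 4889, -1.05 ± 0.18 for S100a8 and 0.02 ± 0.37 for row 18858 (SD, n = 3 mice). They are descriptions, as the mouse left out was the one apart. The gene mean of S100a9 was then -0.87. The part of the missing values in these results was not tested.

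Ngp was below its pool in every Dll1 clone spleen, at -0.38, -0.50, -0.79 and -0.80. In the wt clone spleens it lay slightly above 0, at 0.13, 0.11, 0.04 and 0.11. The groups did not overlap, with all Dll1 spleens below all wt spleens, as for 1.69% of features. All 4 Dll1 spleens were below 0 for 7.27% of features. Dll1 mouse 4 was here the lowest for Ngp, at -0.80 beside -0.79 in mouse 3. This place rests on its Cy5 array, which read -1.33 and had 2966 missing values. Its Cy3 array read -0.27, the highest among the Cy3 arrays of the Dll1 clone spleens. The means were -0.62 ± 0.21 in Dll1 clones and 0.10 ± 0.04 in wt clones (SD, n = 4 mice each), a difference of -0.72. All 8 arrays of the Dll1 clones were below 0, against 0.653% of probes, but the size depended on the dye, with -0.87 for the clone in Cy5 and -0.37 for the clone in Cy3. In wt clone spleen Ngp did not pass (SE 0.12, limma adjusted p = 0.9999), and its Cy3 arrays averaged -0.002.

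Lyz2 lay above 0 in the spleen of both genotypes, and less so in Dll1 clones. It lay at 0.41, 0.45, 0.30 and 0.08 in the Dll1 clone spleens, and at 0.79, 0.70, 0.79 and 0.74 in the wt clone spleens. Every mouse was above its pool, and every Dll1 clone was below every wt clone. For comparison, 8.33% of features had all 4 Dll1 spleens above 0 and 8.93% had all 4 wt spleens above 0. All Dll1 spleens lay below all wt spleens for 1.69% of features. The means were 0.31 ± 0.16 in Dll1 clones and 0.76 ± 0.05 in wt clones (SD, n = 4 mice each), a difference of -0.45. The value in Dll1 clones did not choose the gene. It did not pass by limma with Benjamini-Hochberg adjustment (SE 0.11, 95% interval 0.05 to 0.57, unadjusted p = 0.0234, adjusted p = 0.476), where 9.98% of features had an unadjusted p under 0.05 and 0% passed. When all 4 groups shared 1 fit it passed (adjusted p = 0.0312), and that fit lends the narrow spread of the livers to the spleens and called 960 features.

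The probes of Lyz2 had similar group means in spleen. In wt clone spleen the probe at row 12301 averaged 0.76 ± 0.08 and the probe at row 17282 averaged 0.76 ± 0.02 (SD, n = 4 mice), and all 8 arrays of each were above 0, as for 0.745% of probes. In Dll1 clone spleen they averaged 0.27 ± 0.25 and 0.35 ± 0.18. By mouse they differed there, at 0.24, 0.50, 0.40 and -0.06 for row 12301 and at 0.58, 0.40, 0.20 and 0.22 for row 17282. With the clone in Cy3 they averaged 0.28 and -0.01 there. In wt clone liver the probes averaged 0.05 and -0.07. The probes correlated at r = 0.793 over the 8 spleens, and Ngp correlated with them at 0.850 and 0.981. Lyz2 and Ngp were chosen on values of these spleens, so the correlations are descriptions. Between Ngp and the gene mean of Lyz2, r was 0.958, and 0.741 with each genotype centred. Row 17282 carried a dye difference of 1 sign in all groups: Cy5 minus Cy3 was 0.72 in Dll1 clone spleen, 0.61 in wt clone spleen, 0.35 in Dll1 clone liver and 0.72 in wt clone liver. Row 12301 had -0.01, 0.20, -0.42 and 0.28 in the same groups.

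**Figure D2:**
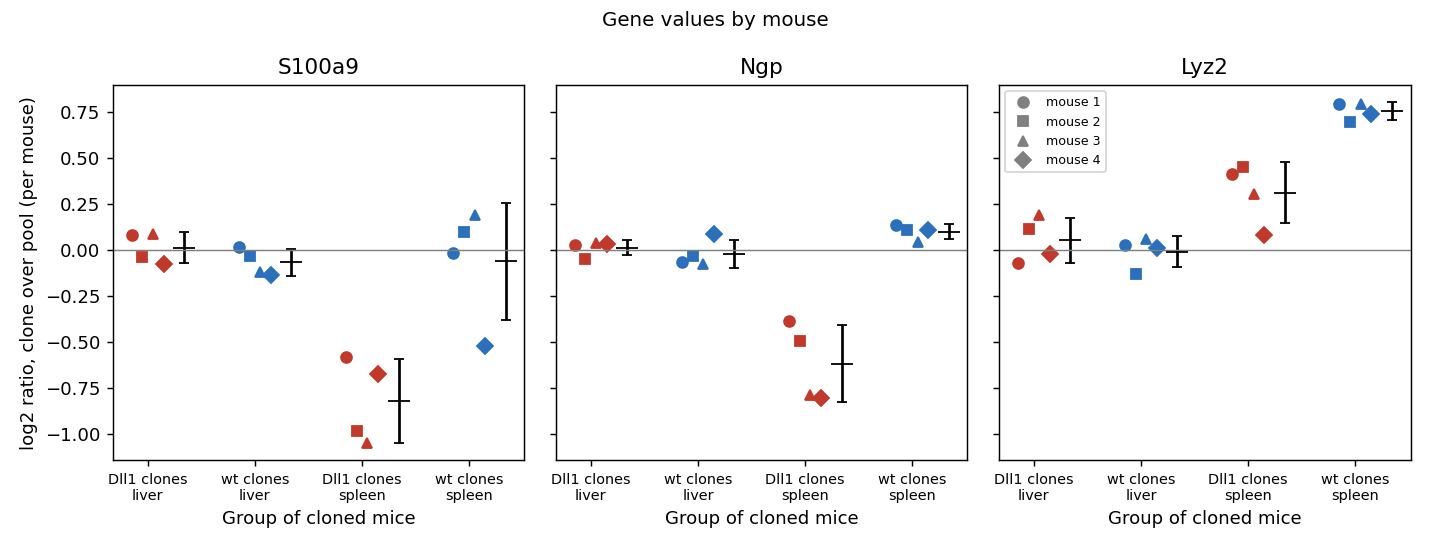
Log2 ratio of each gene (vertical axis) in the 4 mice of each group (horizontal axis), with the mean and SD beside the symbols. In spleen every Dll1 clone lies below every wt clone for all 3 gene means, as for 1.69% of all features. For S100a9 neither probe shows this alone: Dll1 mouse 4 is at 0.09 at row 4889 and Dll1 mouse 1 at 0.45 at row 18858. In liver all mice lie between -0.14 and 0.19.

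**Figure D3:**
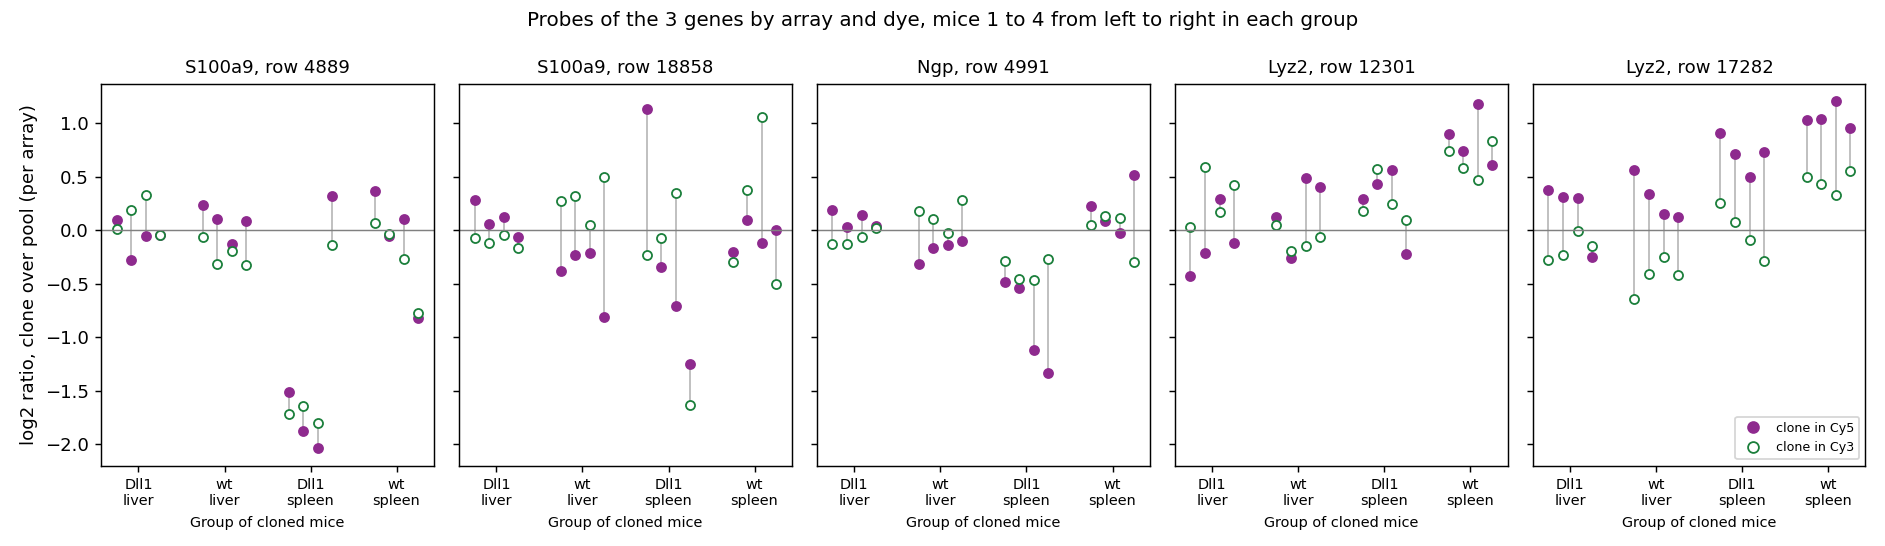
Log2 ratio on each array (vertical axis) for the 5 probes, with Dll1 and wt clones by organ along the horizontal axis, filled symbols for the clone in Cy5, open symbols for the clone in Cy3, and a line joining the arrays of a mouse. The dyes of row 4889 lie close together in Dll1 mice 1 to 3 in spleen, and those of row 17282 are apart with Cy5 above Cy3 in every mouse except Dll1 mouse 4 in liver.

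In liver none of the 3 genes passed in either genotype. S100a9 lay at 0.08, -0.04, 0.09 and -0.08 in Dll1 clones and at 0.02, -0.03, -0.12 and -0.14 in wt clones. The means were 0.01 ± 0.08 in Dll1 clones and -0.07 ± 0.07 in wt clones (SD, n = 4 mice each, limma adjusted p = 0.944 and 0.698). Ngp averaged 0.01 ± 0.04 in Dll1 clones and -0.02 ± 0.08 in wt clones (limma adjusted p = 0.942 and 0.928), and Lyz2 0.05 ± 0.12 in Dll1 clones and -0.01 ± 0.08 in wt clones (limma adjusted p = 0.749 and 0.982). All values lay between -0.14 and 0.19, and the groups overlapped for each gene. The Dll1 minus wt difference was 0.08 for S100a9 (SE 0.06, 95% interval -0.06 to 0.22, limma adjusted p = 0.935), 0.03 for Ngp (SE 0.06, adjusted p = 0.965) and 0.06 for Lyz2 (SE 0.07, adjusted p = 0.944). In these fits 0% of features passed in Dll1 clones, 0.0704% in wt clones and 0% in the difference, and 9.14%, 8.88% and 4.91% had an unadjusted p under 0.05. The median SD between mice was 0.11 and 0.09 in the Dll1 and wt livers and 0.46 and 0.28 in the Dll1 and wt spleens.

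Between organs of the same animals, S100a9 differed by 0.005 (SE 0.15) and Ngp by 0.12 (SE 0.11) as spleen minus liver in wt clones, and Lyz2 by 0.26 (SE 0.11) in Dll1 clones. None passed by limma, with adjusted p = 0.9997 for S100a9 and Ngp and 0.333 for Lyz2, where 0% of features passed in wt clones and 0.0412% in Dll1 clones, and 5.27% and 13.2% fell under 0.05 without adjustment. With the mouse as a block the adjusted p of Lyz2 was 0.478, and the 7 features called in Dll1 clones became 0. The comparisons that chose the genes were -0.83 for S100a9 and -0.63 for Ngp in Dll1 clones and 0.77 for Lyz2 in wt clones, given without a test.

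The sign of these values depends on whether the arrays with the clone in Cy3 had already been turned. They were read as turned. The orientation means over all probes correlated at -0.258 and -0.298 in Dll1 liver and spleen and at -0.700 and -0.384 in wt liver and spleen. On the other reading the Dll1 clone spleens averaged 0.04 for S100a9, -0.25 for Ngp and 0.18 for Lyz2, and the wt clone spleens -0.02, 0.10 and 0.20. In wt clone liver Lyz2 then reached 0.25 (limma adjusted p = 0.00247) and Ngp -0.16 (adjusted p = 0.0121). In that fit 9176 features passed, where the reading used above called 12 of 17037, so passing was common there. Row 4889 in Dll1 clone spleen, with dyes at -1.27 and -1.32, would then average 0.02.

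Other genes of neutrophil granules had no call. Of 17 listed besides Ngp, 11 were measured, 6 below and 5 above 0 in Dll1 clone spleen with a median of -0.08, and 3 below and 8 above in wt clone spleen with a median of 0.04. The medians of all features were 0.006 and 0.01, and 0 of the 11 passed by limma in either spleen, with 2 in Dll1 clones and 0 in wt clones under 0.05 without adjustment, beside 9.98% and 3.42% of all features. Elane, neutrophil elastase of primary granules, lay at -0.18, -0.82, -1.41 and 0.19 in Dll1 clones, and at -0.09, -0.03, 0.06 and 0.66 in wt clones. Camp, the cathelicidin of secondary granules, lay at -0.13, -1.31, -0.76 and 0.05 in Dll1 clones, and at 0.28, -0.24, 0.18 and -0.04 in wt clones. For both, Dll1 mouse 4 was the highest of its group. Over the 11 granule genes mouse 4 was the highest Dll1 clone for 5, the lowest for 2 and between for 4, and Mmp8, a collagenase, chosen after its values were seen, was at -1.05 in it. Prtn3, proteinase 3, was chosen after its values were seen, with all 4 Dll1 clones below 0, as for 7.27% of features, and a mean of -0.36. The 5 genes with means above 0 in Dll1 clones were Pglyrp1 at 0.29, Lcn2 at 0.15, Chil3 at 0.15, Ltf at 0.07 and Mmp9 at 0.04. Without mouse 4, a step added after the values were seen, 9 of the 11 genes were below 0 in Dll1 clone spleen and 2 above. The 9 ran from -0.80 to -0.006. The median was -0.07, against -0.08 with mouse 4 kept. The share of all features below 0 in these 3 mice was not computed. Chil3, a chitinase-like protein, averaged -0.74 ± 0.96 in wt clone spleen, and Mpo, myeloperoxidase, 0.20 ± 0.04 (SD, n = 4 mice).

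None of the other myeloid lists had a call in spleen. Of 26 monocyte and macrophage genes besides Lyz2, 15 were measured, 11 above 0 in Dll1 clones and 12 in wt clones, with a median of 0.06 in each. Among all features 8631 of 16999 were above 0 in Dll1 clones and 8970 of 17009 in wt clones. Ctss, a lysosomal protease, averaged 0.49 ± 0.11 in wt clone spleen (SD, n = 4 mice). Ccr2, the chemokine receptor of inflammatory monocytes, averaged 0.63 ± 0.96 in Dll1 clones and -0.50 ± 0.42 in wt clones, and Clec4f, a Kupffer cell lectin, 0.43 ± 0.42 in Dll1 clones. Among neutrophil receptors 4 of 17 were measured, 2 below and 2 above 0 in Dll1 clones and 1 below and 3 above in wt clones. The integrin chains Itgb2 and Itgam averaged 0.32 ± 0.20 and 0.26 ± 0.19 in Dll1 clones, where the lectin Clec4d lay at -0.17 ± 0.16. In wt clones Clec4d averaged 0.26 ± 0.24 and Itgb2 0.16 ± 0.18. Of the NADPH oxidase genes 4 of 6 were measured, 2 below and 2 above 0 in Dll1 clones and 1 below and 3 above in wt clones. Cyba averaged 0.30 ± 1.08 and Rac2 0.21 ± 0.36 in Dll1 clones, where Cybb lay at -0.11 ± 0.32, and in wt clones Cybb averaged 0.28 ± 0.18 and Rac2 0.26 ± 0.15. The myeloid transcription factor list had 7 of 10 measured, 2 below and 5 above 0 in Dll1 clones and 5 below and 2 above in wt clones. Cebpe, which drives secondary granule genes, averaged 0.48 ± 0.92 and Cebpd, another C/EBP factor, -0.16 ± 0.48 in Dll1 clones. Irf8, a factor of monocyte fate, averaged 0.21 ± 0.09 and Klf4, a factor of monocyte differentiation, -0.20 ± 0.47 in wt clones. In the cytosol list Anxa1, a calcium-binding protein of neutrophils, averaged -0.41 ± 1.46 in Dll1 clones. The actin-binding proteins Coro1a and Lcp1, which all leukocytes make, averaged 0.32 ± 0.15 and 0.29 ± 0.09 in wt clones. In Dll1 and wt clones the list medians were -0.12 and 0.18 for neutrophil cytosol genes besides S100a9, 0.12 and 0.09 for receptors, 0.08 and 0.18 for the oxidase and 0.11 and -0.03 for the transcription factors, and 0 genes of these lists passed by limma.

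**Figure D4:**
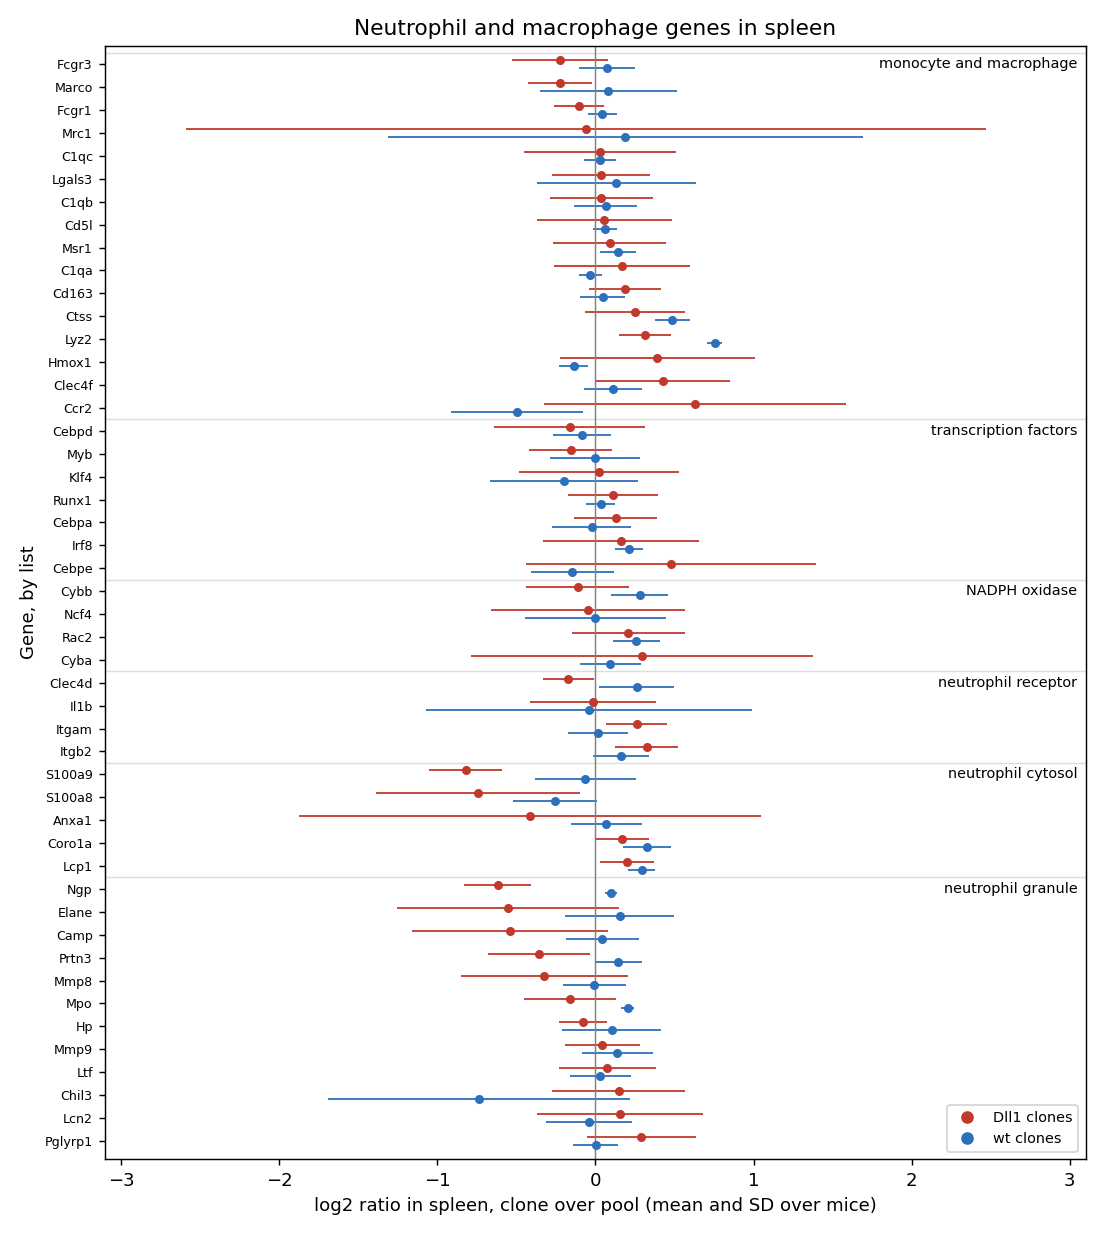
Mean log2 ratio in spleen with SD over mice (horizontal axis) for each measured gene of the neutrophil and macrophage lists (vertical axis), Dll1 clones above wt clones at each gene. S100a9, S100a8, Ngp, Elane and Camp lie lowest in Dll1 clones, where S100a9 and Ngp were chosen for low values. Of the 11 other granule genes measured, 6 lie below and 5 above 0 in Dll1 clones. Of the 15 macrophage genes besides Lyz2, 4 lie below and 11 above 0 there.

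Genes of other cell types also lay away from 0 in the same spleens, with no call. All 10 measured erythroid genes of 19 were below 0 in Dll1 clones, with a median of -0.66, and 9 of 10 were in wt clones, with a median of -0.60. By mouse the erythroid median was -0.18, -1.40, -0.88 and -0.08 in Dll1 clones and -0.52, -0.34, -0.51 and -0.85 in wt clones. Mouse 4 had the value nearest 0 in Dll1 clones, as for row 4889, but mouse 1 was near 0 as well, where row 4889 was at -1.61. The haemoglobin chain Hba-a1 averaged -1.06 ± 0.86 in Dll1 clones, and Car2, a carbonic anhydrase, -1.03 ± 0.30 in wt clones. All 7 measured B cell genes of 13 were above 0 in wt clones and 4 were in Dll1 clones, and Ms4a1, which encodes CD20, averaged 0.44 ± 0.08 in Dll1 clones and 0.71 ± 0.10 in wt clones (SD, n = 4 mice each). Of the dendritic cell list 5 of 10 were measured, 2 below and 3 above 0 in Dll1 clones and 0 below and 5 above in wt clones. Its medians were 0.17 in Dll1 clones and 0.30 in wt clones. The genes farthest from 0 were H2-Eb1 at 1.34 ± 0.36 in Dll1 clones and Cd74 at 0.52 ± 0.04 in wt clones. The other lists also had no call in spleen: their medians in Dll1 and wt clones were 0.04 and 0.14 for eosinophil, basophil and mast cell genes, 0.11 and -0.02 for T and NK cell genes, -0.05 and 0.06 for plasma cell genes, -0.08 and 0.08 for megakaryocyte and platelet genes, -0.05 and 0.07 for hepatocyte genes, and 0.11 and 0.10 for pancreas genes. In those lists the genes farthest from 0 in Dll1 clones were Epx at 0.20, Cd8b1 at 0.53, Xbp1 at 0.60, Ppbp at -0.85, Apoa2 at -0.49 and Cela3b at -0.46, and in wt clones Mcpt8 at 0.31, Thy1 at -0.60, Irf4 at 0.17, Ppbp at 0.66, Alb at 0.23 and Cpa1 at 0.73. In liver no gene of the neutrophil or macrophage lists passed, while 1 of 10 erythroid and 1 of 10 hepatocyte genes fell in wt clones, Hba-a1 at -0.56 and Fga, fibrinogen alpha, at -0.49 (limma adjusted p = 0.0409 each), beside 0.0704% of all features. No feature passed there with values above 9 kept, with the arrays scaled to one spread or with all 4 groups in 1 fit. The part of these cell types in the values of S100a9, Ngp and Lyz2 was not tested.

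The genes most like each member over the 8 spleens, of 8726 compared, are named without reference to function. For S100a9, read as the mean of 2 probes that correlated at -0.24, they were Ttf1 (r = 0.948), Lin28a (0.946), Ms4a1 (0.926) and C2 (0.923). For Ngp they were Slco2b1 (0.980), Ttll9 (0.969), Commd1 (0.967) and Akt2 (0.961). For Lyz2 they were Ktn1 (0.973), Ngp itself (0.958), Nupl2 (0.953) and Akt2 (0.949). With each genotype centred, the 12 correlations lay between 0.702, for Lyz2 and Akt2, and 0.968, for Ngp and Commd1. The r values are those of the 4 highest among all genes compared, over 8 points that share a reference pool within each genotype. Values that chose the members are among the 8, so the correlations are descriptions.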

How the data were processed

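RNA of liver and spleen was hybridised on 2-colour arrays against pools, 32 arrays in all, per the labels. The deposited table holds 1 log2 ratio per probe and array, made by the authors; how the spots were scanned, background-corrected, normalized and filtered is not given in the sources used here, and the log base was read from the values. The direction, clone over pool, follows the titles and is not stated for the values. Values above 9 in size, 1183 on 883 rows, were set to missing as constants, and no further centring was applied. Rows were named by the probe 11 rows earlier through the platform table, which gives 12771 probes 1 symbol each and none several; in 14 scorings this shift came out highest in 6, and the version restricted to probes whose dyes agree was added last, after the others had been seen. Further scorings by noise and missing values gave mixed answers and are not among the 14.

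Probes of a gene were averaged per array and arrays per mouse. Each organ was fitted with limma 3.58.1 in R 4.3.3 (lmFit, eBayes, group means, spread shared by both genotypes), over features with values in at least 3 mice per group, with Benjamini-Hochberg adjustment over all features and a threshold of 0.05. Testing a group mean against 0 leaves out the spread of the conventional mice. The fit was tested on simulated data: estimates were recovered, but where the genotypes differ in spread it called unchanged features too, so its calls can be too many. The same animals gave both organs, and this is where the pairing comes from; deviations of a mouse in liver and spleen correlated at -0.007 to 0.084. The number of arrays limits the precision, and signal over background was not analysed here.

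The members and all 15 lists, 194 genes with 109 measured, were chosen with earlier results of these data known. Besides the members, the text names the 2 genes farthest from 0 per myeloid list and spleen group and the farthest gene of each other list. It also names the 4 most alike genes per member. Outside this rule are Prtn3, Mmp8, the granule genes above 0 in Dll1 clone spleen, and Fga in liver. Some genes are also given in groups where the rule did not name them, such as Clec4d and Cybb in Dll1 clones. Promoters are from RefSeq. Alternatives covered the missing-value limit, dye turning, centring, scaling, single dyes, single probes, stricter values, unshifted names, a joint fit, a random mouse block and single mice left out.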

Additional observations from a re-analysis of the deposited data

Results flagged for a closer look

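Of 32 groups of 4 mice looked at for a mouse standing apart from the others, 3 had one. Chance gives about 1 in 20 for independent groups. The 32 hold gene means beside their own probes and include values that chose the genes, so the count is only a description. Ngp in Dll1 clone liver was -0.051 in mouse 2, below 3 mice between 0.03 and 0.04. The S100a9 probe at row 4889 was 0.092 in Dll1 clone spleen of mouse 4, where the other mice lay between -1.92 and -1.61, and the Cy5 array of that mouse had 2966 missing values. The Lyz2 probe at row 17282 was -0.15 in wt clone liver of mouse 4, below the other mice. Ngp in spleen was below 0 in every Dll1 clone and above 0 in every wt clone. For each group alone this held for 7.27% and 8.93% of all features, and the share with both was not computed. All Dll1 spleens lay below all wt spleens for 1.69% of features. The Ngp difference was -0.72 as Dll1 minus wt. That difference was not tested, since Ngp was chosen on the Dll1 clone spleens.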

How the results depend on the processing

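Among the alternatives for the 3 genes' values, 404 kept their direction and their side of the threshold or stayed within 1 SD, 37 untested values moved further, 32 turned sign and 7 newly passed. The sign changes concerned means near 0, except for Lyz2 of Dll1 clones with names as given. The spleen values that chose the genes kept their sign except for S100a9 in Dll1 clones with the Cy3 arrays turned, where the S100a9 spleen difference also became 0.05 and the Lyz2 organ difference of wt clones -0.05. The cause of the changes below was not tested.

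With the Cy3 arrays turned, Lyz2 changed sign to -0.018 in Dll1 liver, 0.25 in wt liver and -0.27 in their difference. Counts of features passing were then 767 in Dll1 liver, 9176 in wt liver, 6892 in their difference, 732 in Dll1 spleen, 141 in wt spleen, and 575 and 2087 for spleen minus liver in Dll1 and wt clones, against 0, 12, 0, 0, 0, 7 and 0 as reported. With the clone in Cy5 only, Lyz2 was 0.24 in wt liver and -0.21 in the liver difference. The same counts were 117, 5600, 3076, 6, 1, 258 and 991. With the clone in Cy3 only, Ngp was -0.077 in Dll1 liver, 0.14 in wt liver, -0.21 in the liver difference, -0.0023 in wt spleen and -0.14 for spleen minus liver in wt clones. S100a9 was 0.029 in wt liver, -0.021 in the liver difference and -0.077 for spleen minus liver in wt clones. Counts were 43 in Dll1 liver, 7295 in wt liver, 3871 in their difference, and 13 and 476 for spleen minus liver in Dll1 and wt clones.

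Keeping values above 9 gave 0 in wt liver and 3 for spleen minus liver in wt clones. Array medians set to 0 gave 2 there, and S100a9 -0.0049. Scaling to one spread gave 0 in wt liver and 1 for spleen minus liver in Dll1 clones, with Lyz2 at 0.022 in wt liver. The earliest probe gave 3 for spleen minus liver in Dll1 clones, Lyz2 0.049 in wt liver, and S100a9 -0.10 for spleen minus liver in wt clones. The latest probe, chosen after the probes were seen, gave 5 for spleen minus liver in wt clones, and S100a9 -0.0013 in Dll1 liver and 0.050 in wt spleen. Requiring both arrays of all 4 mice gave 3 for spleen minus liver in wt clones. With names as given, S100a9 was -0.019 in Dll1 liver, 0.0091 in wt liver, -0.028 in their difference and 0.17 in wt spleen. Lyz2 was 0.12 in wt liver, -0.40 in Dll1 spleen and -0.55 for spleen minus liver in Dll1 clones, and the organ counts were 3 in Dll1 and 7 in wt clones. With all 4 groups in 1 fit, counts were 0 in wt liver, 960 in Dll1 spleen, 61 in wt spleen and 58 in the spleen difference. Single arrays with a dye term and the mouse as a random block gave 12 in Dll1 liver, 54 in wt liver, 1 in Dll1 spleen, 8 in wt spleen, and 52 and 38 for spleen minus liver in Dll1 and wt clones. With the mouse as a replicate block, which pairs liver and spleen of an animal, the count for spleen minus liver was 0 in Dll1 clones against 7 without it, and the block changed no other call.

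Leaving out each mouse in turn gave 0 to 1 passing features in Dll1 liver, 0 to 19 in wt liver, 0 to 1 in Dll1 spleen and 2 to 72 for spleen minus liver in Dll1 clones. It gave 0 without Dll1 mouse 4 or wt mouse 1, 3 or 4 in wt liver. S100a9 ranged from -0.013 to 0.042 in Dll1 liver, from -0.15 to 0.089 in wt spleen and from -0.097 to 0.14 for spleen minus liver in wt clones, and Lyz2 from -0.032 to 0.031 in wt liver.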
